A study of Mus musculus with 42 samples.

Results

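The genes described here encode NRF2 and the antioxidant defence it is known to serve in mouse kidney. The 34 members were taken by symbol from the 56691 genes of the deposited tables, and all 34 had a row in both tables. They were ordered by role: 2 regulators, 8 glutathione genes, 9 thioredoxin and peroxiredoxin genes, 4 superoxide dismutase and catalase genes, 9 detoxification genes and 2 genes of NADPH supply. Of these, 33 reached a mean of at least 1 FPKM (fragments per kilobase of transcript, scaled to the size of the library) over all pools and were tested together with 13344 genes in all.

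Kidneys came from male wild-type C57BL/6 mice, 6 weeks old at the start, kept in 12 h light and 12 h dark. One group ate standard chow for 14 weeks. The other is labelled EpSA, an abbreviation the labels do not spell out, and per the protocol ate a high-fat diet with 3% EpSA over the same 14 weeks. The series title places the study in work on thermally abused frying oil and renal injury by time of day. Kidneys were taken at zeitgeber time (ZT, hours after lights on) 1, 5, 9, 13, 17, 21 and 25, from 3 mice per diet and time, or 42 libraries. Each table gives 1 value per gene and time, read here as the mean of those 3 mice and called a pool, so there are 7 chow pools and 7 EpSA pools. The spread between mice and the sequencing depth are unknown. A high-fat group without EpSA is not part of the values used, and the effects of fat and of EpSA cannot be told apart.

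NRF2, encoded by Nfe2l2, is a transcription factor that KEAP1 holds in the cytoplasm and hands to the proteasome. Oxidants and electrophiles modify cysteines of KEAP1, and NRF2 then reaches the nucleus and binds, with small MAF proteins, to antioxidant response elements beside its target genes. The targets supply glutathione, reduce peroxides through thioredoxin, conjugate or reduce reactive compounds and regenerate NADPH. Because NRF2 is controlled mainly through its protein, its mRNA level is not a measure of its activity. In the kidney the proximal tubule, which is rich in mitochondria and takes up toxicants from blood and filtrate, is known as a main site of this defence.

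The core letters of the antioxidant response element, TGACNNNGC, were searched on both strands of RefSeq promoter windows (GRCm38.p6) that reach from 250 bases before to 50 bases after a gene's start. A window was given for 28 of the 34 members, and 9 of these 28 (32.1%) held the letters, beside 14% of 27025 genes. Counted by window, 9 of 35 member windows (25.7%) and 12.4% of 32851 windows held them. Gsta4, Gclc, Hmox1, Prdx6, Gsr and Sod3 had no window. The E-box letters CACGTG, which clock factors are known to bind, stood in 1 member, Prdx4 (3.57%), which did not hold the first motif, beside 8.09% of genes. The 6 members below are shown because the element lies before a start that RefSeq gives and outside any annotated exon of the same gene, and they cover 5 of the 6 role groups. Each line runs 5′ to 3′ on the strand that carries the match, and the capitals mark the matched letters.

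Nfe2l2: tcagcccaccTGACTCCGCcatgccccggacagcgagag
Gclm: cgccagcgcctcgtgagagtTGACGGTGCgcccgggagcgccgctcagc
Txnrd1: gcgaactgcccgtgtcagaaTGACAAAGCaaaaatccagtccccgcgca
Prdx1: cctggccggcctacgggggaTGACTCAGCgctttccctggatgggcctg
Sod1: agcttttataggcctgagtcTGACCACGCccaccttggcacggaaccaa
Gsta3: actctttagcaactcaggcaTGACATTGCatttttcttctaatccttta

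The Nfe2l2 stretch lies at chr2:75704875-75704913 on the minus strand, the strand of the gene, and an exon of the non-coding gene E030042O20Rik overlaps it. The Gclm stretch lies at chr3:122245403-122245451, the Txnrd1 stretch at chr10:82859094-82859142, the Prdx1 stretch at chr4:116685446-116685494 and the Sod1 stretch at chr16:90220686-90220734, all on the minus strand and opposite to their genes. For Txnrd1, 1 of 3 windows held the letters, and the stretch precedes an internal start, within the span of the gene's longest transcript. The Gsta3 stretch lies at chr1:21240444-21240492 on the plus strand, the strand of the gene. G6pdx, Pgd and Srxn1 also held the letters, within annotated exons of those genes. A match is a description of letters and does not show that NRF2 binds there.

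The members spanned a wide range of mRNA levels. Gpx3, the secreted glutathione peroxidase that the proximal tubule makes for blood plasma, averaged 10800 FPKM over the 14 pools and by itself made up 2.38 to 3.26% of the summed FPKM of a chow pool and 2.4 to 2.61% of an EpSA pool. Prdx5, Gpx1, Cat, Prdx1 and Txn1 followed with means from 628 down to 299 FPKM. The ranges of Gpx1, Cat, Prdx1 and Txn1 over pools overlapped. That of Prdx5 (517.24 to 913.007 FPKM) overlapped that of Gpx1 (357.933 to 594.34 FPKM). At the other end stood Keap1 with 8.48 FPKM, Ugt1a6a with 1.47 FPKM, just above the minimum for testing, and Slc7a11. Slc7a11, the cystine transporter that feeds glutathione synthesis in many cultured cells, lay between 0.007 and 0.037 FPKM in all 14 pools and was not tested. Its mean was 0.0177 FPKM in chow and 0.021 FPKM in EpSA.

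Facts of the pools bear on what follows. The tissue label was checked against 10 proximal tubule markers, all expressed, which summed to 3786 to 4273 FPKM in chow and 3964 to 4447 FPKM in EpSA. The 8 immune cell markers summed to 175.1 to 926.4 FPKM in chow, with the higher values at ZT 1, 5, 9 and 13, and to 177.6 to 231.6 FPKM in EpSA. Most of the spread in chow came from Cd74, at 99.0 to 796 FPKM in chow and 101 to 133 FPKM in EpSA. Red blood cell markers (5 of 7 listed were tested) summed to 373.4 to 699.4 FPKM in chow and 303.1 to 426.7 FPKM in EpSA, and thick limb and distal tubule markers (6) to 1085 to 1451 FPKM and 824.6 to 1176 FPKM. Most of the latter sum was Umod, at 737 to 1021 FPKM in chow and 483 to 806 FPKM in EpSA. The lower sum was not shared by all 6. Slc12a3 had 87.9 to 121.5 FPKM in chow and 94.8 to 132.6 FPKM in EpSA, and Calb1 49.4 to 82.3 FPKM and 45.8 to 80.9 FPKM. Adrenal cortex markers stood at 108.2 FPKM in the EpSA pool at ZT 9 and at no more than 1.6 in chow. The chow pool at ZT 21 had the highest FPKM sum (435621) and the fewest genes above 0 (27796). In bulk tissue, fewer cells of a type and less RNA per cell cannot be told apart, and the part of cell makeup in the results below was not tested.

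With limma on log2(FPKM + 1), 0 of the 33 members passed the test between diets at a Benjamini-Hochberg adjusted p of 0.05 over all genes. Over the 13344 genes, 23 were called higher in EpSA (0.172%) and 10 lower (0.0749%). At an unadjusted p under 0.05, 3 members were higher (Ugt1a6a, Nfe2l2 and Gsta2; 8.56% of all genes) and 5 lower (Gstm1, Sod3, Keap1, Gsr and Prdx6; 10.6% of all genes). Read against those shares, the higher count is near the background and the lower count is above it by no more than 2 genes. The 7 pairs of pools at the same time are the units of this test, and its error is the spread of the diet difference between times. All differences below are EpSA minus chow on the log2(FPKM + 1) scale, as mean ± SE over the 7 times.

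**Figure D1:**
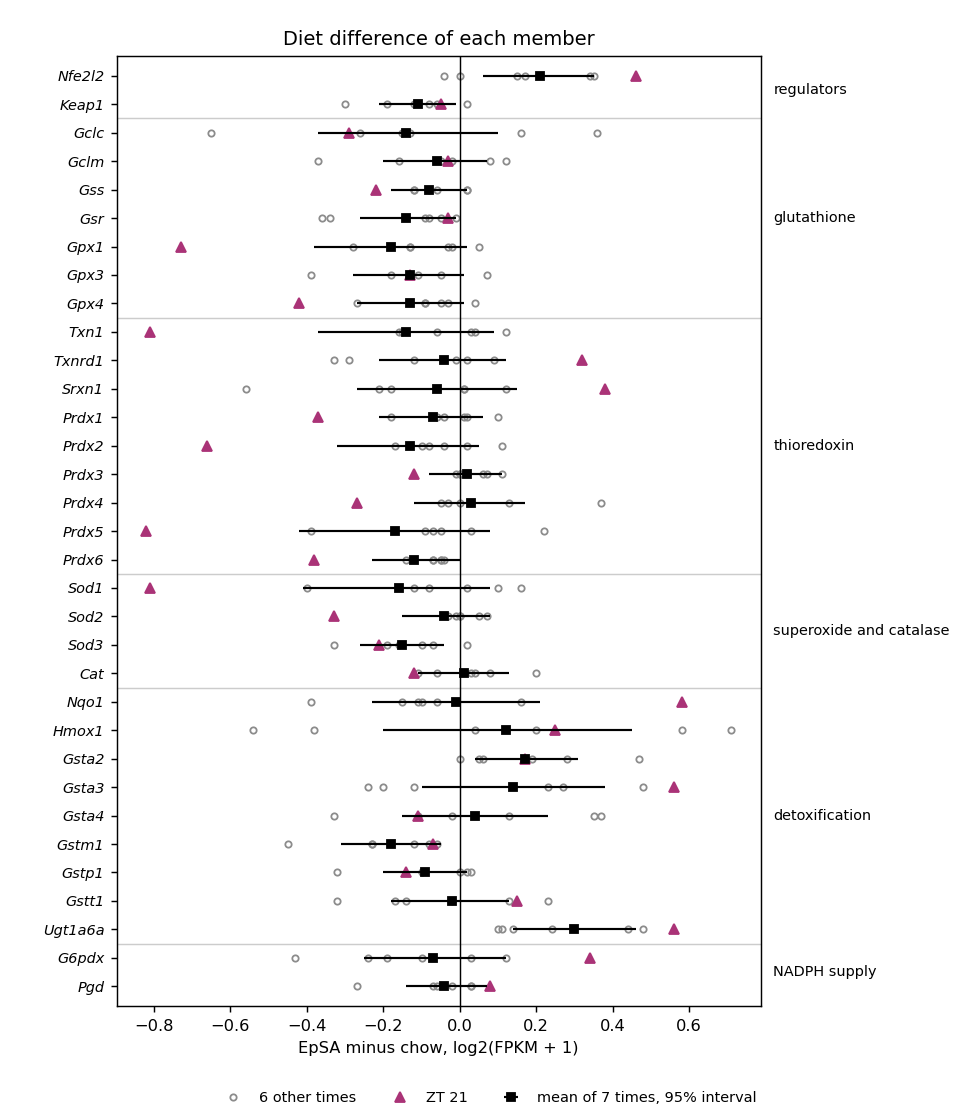
Diet difference of the 33 tested members, by role. The x axis is EpSA minus chow on the log2(FPKM + 1) scale. Black squares are the mean of 7 times with its 95% interval, open circles are single times and triangles are ZT 21. Of the members, 24 lie below 0 (18 after quantile normalization), and for Txn1, Prdx5, Sod1, Gpx1 and Prdx2 the ZT 21 value is the lowest of the 7.

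Among the members 24 of 33 had a mean below 0 (72.7%), beside 53.9% of all genes tested, and their median was -0.067 beside -0.01. After quantile normalization, which makes the distribution of values equal in all pools, the count was 18 of 33, beside 51% of all genes, and the median -0.015, beside -0.002. The count was 24 of 32 among genes of at least 5 FPKM, where 63.2% of all genes lay below 0. By role, the median was -0.134 for glutathione genes (-0.052 after quantile normalization, -0.089 without ZT 21) and -0.074 for thioredoxin genes (-0.015 after quantile normalization, -0.044 without ZT 21). It was -0.093 for superoxide dismutases and catalase (-0.029 after quantile normalization, -0.019 without ZT 21) and -0.053 for NADPH genes (-0.025 after quantile normalization, -0.004 without ZT 13). For detoxification genes it was 0.04 (0.088 after quantile normalization, from 0.004 without ZT 17 to 0.102 without ZT 13). No group median was tested. Over the 11340 tested genes with a transcript length, the diet difference went with that length. Its median was -0.05 under 750 bases, -0.041 at 750 to under 1500 and -0.013 at 1500 to under 3000. It was 0.003 at 3000 to under 6000 and 0.029 at 6000 bases and over. Without ZT 21 these medians ran from -0.038 for the shortest to -0.011 for the longest. Of the members, 3 were under 750 bases and 14 of 750 to under 1500. The part of transcript length in the members' differences was not tested. Members with the antioxidant response letters in their window had a median of -0.06 (7 of 9 below 0), and tested members with a window and without the letters had -0.085 (13 of 18 below 0).

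The regulators lay on opposite sides of 0 in every scaling and with any 1 time left out. Nfe2l2 (ENSMUSG00000015839, chr2:75675513-75704641 in GENCODE's GRCm38 annotation) had 30.6, 28.5, 28.9, 25.2, 27.1, 25.4 and 23.95 FPKM in chow from ZT 1 to ZT 25. In EpSA it had 34.1, 28.6, 28.2, 28.5, 34.7, 35.2 and 30.8 FPKM. The 2 diets lay close together at ZT 5 and ZT 9 and apart from ZT 17 to ZT 25, where every EpSA pool was above every chow pool of those hours. The diet difference was 0.21 ± 0.06 (95% interval 0.06 to 0.35, higher at 6 of 7 times, limma adjusted p = 0.15).

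Keap1 (ENSMUSG00000003308), which encodes the repressor, had 9.46, 9.47, 8.39, 8.94, 8.18, 8.40 and 9.05 FPKM in chow and 8.20, 8.91, 8.01, 7.10, 8.29, 8.10 and 8.22 FPKM in EpSA, in the same order of times. It was lower in EpSA at 6 of 7 times, ZT 17 being the exception, and the ranges overlapped. The difference was -0.11 ± 0.05 (interval -0.21 to -0.01, limma adjusted p = 0.23).

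**Figure D2:**
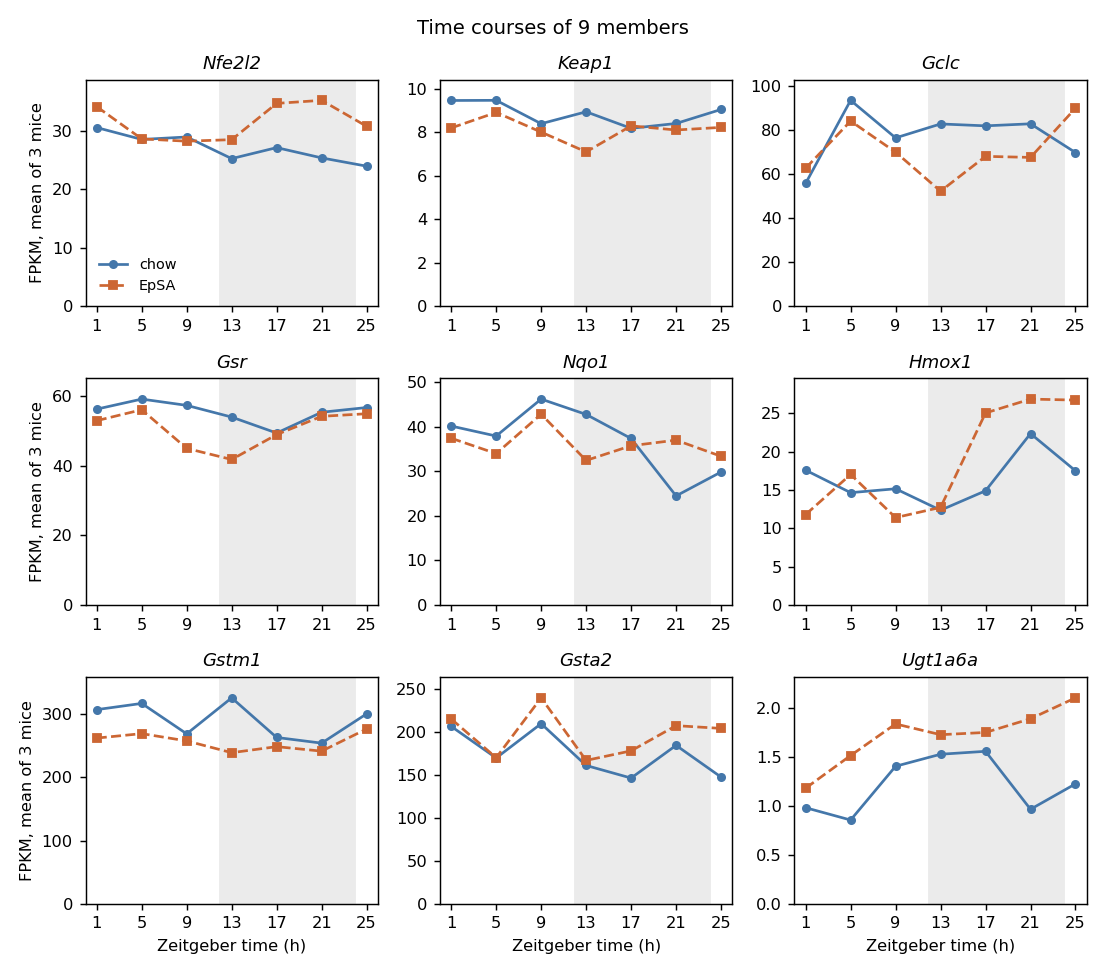
Time courses of 9 members in FPKM, read as the mean of 3 mice, with chow as circles and solid lines and EpSA as squares and dashed lines. The x axis is zeitgeber time in hours, the shaded span is the dark phase, and each y axis starts at 0. Hmox1 in EpSA goes from 11.8 FPKM at ZT 1 to 26.7 FPKM at ZT 25, the same clock hour.

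All 7 tested glutathione genes had a mean diet difference below 0, except that Gclm was at 0.012 after quantile normalization. Their differences ran from -0.18 to -0.06 and 1 of the 7, Gsr, had an unadjusted p under 0.05. Gclc, the catalytic subunit of the rate-limiting enzyme of glutathione synthesis, had 55.8, 93.5, 76.5, 82.8, 81.9, 82.8 and 69.8 FPKM in chow. Its EpSA values were 62.7, 84.1, 70.0, 52.3, 68.1, 67.6 and 89.9 FPKM. Both diets were high at ZT 5, and the diets lay furthest apart at ZT 13, by -0.65. The mean difference was -0.14 ± 0.11 (interval -0.37 to 0.10, limma adjusted p = 0.51), smaller than the distance between pools of 1 diet at the same clock hour, since ZT 25 was above ZT 1 by 0.32 in chow and 0.51 in EpSA. Without ZT 13 it was -0.051 and without ZT 25 -0.22.

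Gclm, the modifier subunit of the same enzyme, ranged from 45.4 to 53.7 FPKM in chow and from 41.3 to 50.9 FPKM in EpSA. At ZT 9 it was at its highest in chow and at its lowest in EpSA. Gss, glutathione synthetase, had medians of 59.1 and 56.4 FPKM. The diet differences of Gclm and Gss were -0.06 ± 0.06 and -0.08 ± 0.04, both with intervals that included 0, and that of Gclm was -0.011 without ZT 9.

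Gsr, glutathione reductase, which returns oxidised glutathione to its reduced form with NADPH, had 56.2, 59.1, 57.3, 53.9, 49.4, 55.3 and 56.7 FPKM in chow. The EpSA pools held 52.9, 56.0, 45.0, 41.8, 48.9, 54.2 and 54.9 FPKM. It was lower in EpSA at 7 of 7 times, with differences of -0.34 and -0.36 at ZT 9 and ZT 13 and of -0.09 to -0.01 at the other times. The difference was -0.14 ± 0.06 (interval -0.26 to -0.01, limma adjusted p = 0.23).

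Of the glutathione peroxidases, Gpx1, the abundant cytosolic one, had 406, 426, 436, 415, 384, 594 and 476 FPKM in chow. The EpSA values were 400.3, 388, 427, 380, 398, 358 and 392 FPKM. The chow pool at ZT 21 stood above all others, and the difference at that time was -0.73 while the other 6 lay between -0.28 and 0.05. The mean was -0.18 ± 0.09 (interval -0.38 to 0.02, limma adjusted p = 0.3), and -0.089 without ZT 21.

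Gpx3 had its lowest, median and highest values at 10089, 11165 and 13055 FPKM in chow and at 9814, 10162 and 10750 FPKM in EpSA. Gpx4, which reduces lipid peroxides in membranes, had 128, 139 and 159 FPKM in chow and 119, 128 and 136 FPKM in EpSA. The ranges of both overlapped between diets. Each was lower in EpSA at 6 of 7 times with a mean difference of -0.13 ± 0.06 and limma adjusted p of 0.29 and 0.28, and that of Gpx4 was -0.081 without ZT 21.

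In the thioredoxin group, Txn1, thioredoxin itself, had 313, 267, 281, 328, 269, 458 and 293 FPKM in chow. Its EpSA values were 301, 275, 305, 293, 275, 260.1 and 265 FPKM. The chow pool at ZT 21 was again the highest of all 14 and the EpSA pool at ZT 21 the lowest. The mean difference of -0.14 ± 0.10 (limma adjusted p = 0.48) shrank to -0.029 without ZT 21.

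Prdx5, a peroxiredoxin of mitochondria, peroxisomes and cytosol, had its extremes in the same pools. It had 635, 603, 561, 625, 586, 913 and 747 FPKM in chow and 651, 566, 651, 594, 568, 517 and 568 FPKM in EpSA. The ZT 21 chow pool was high and the ZT 21 EpSA pool low. The mean difference was -0.17 ± 0.11 (limma adjusted p = 0.44), and -0.059 without ZT 21.

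The other peroxiredoxins reduce peroxides in the cytosol (Prdx1, Prdx2, Prdx6), mitochondria (Prdx3) or endoplasmic reticulum (Prdx4). Prdx6 was lower in EpSA at 7 of 7 times, with medians of 47.6 FPKM in chow and 44.0 FPKM in EpSA and a difference of -0.12 ± 0.05 (limma adjusted p = 0.25; -0.072 without ZT 21). Prdx2, which is also abundant in red blood cells, had medians of 57.2 and 53.4 FPKM and a difference of -0.13 (-0.044 without ZT 21), while the red blood cell markers summed to a median of 509.7 FPKM in chow and 362 FPKM in EpSA; their part in Prdx2 was not tested. Prdx1 (medians 339 and 325 FPKM), Prdx3 (133 and 138) and Prdx4 (10.2 and 10.1) had differences of -0.07 (-0.025 without ZT 21), 0.02 and 0.03, and every interval included 0.

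Txnrd1, thioredoxin reductase, and Srxn1, sulfiredoxin, which repairs overoxidised peroxiredoxins, had another order of pools. Txnrd1 was highest at ZT 1 in chow (27.4 FPKM) and at ZT 21 in EpSA (27.4 FPKM). Srxn1 was likewise highest at ZT 1 in chow (30.7 FPKM) and at ZT 21 in EpSA (28.5 FPKM), and both were lowest in chow at ZT 21. Their diet differences changed sign over the day, from -0.33 and -0.56 at ZT 1 to 0.32 and 0.38 at ZT 21, and averaged -0.04 and -0.06.

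Sod1, the cytosolic copper and zinc superoxide dismutase, had 111, 105, 106, 122, 113, 173 and 137 FPKM in chow. In EpSA it had 119, 107, 118, 112, 107, 98.0 and 104 FPKM. Its difference of -0.16 ± 0.11 (limma adjusted p = 0.45) was -0.054 without ZT 21. Sod3, the extracellular form, gave a steadier difference. It had 80.2, 80.9, 76.4, 89.0, 76.7, 75.3 and 78.0 FPKM in chow and 70.1, 72.3, 71.0, 70.4, 72.8, 65.1 and 79.0 FPKM in EpSA.

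Sod3 was lower in EpSA at 6 of 7 times, ZT 25 being the exception, with a mean of -0.15 ± 0.05 (interval -0.26 to -0.04, limma adjusted p = 0.16). Sod2, the mitochondrial manganese form, lay between 31.0 and 32.0 FPKM in 6 chow pools, at 39.3 FPKM in chow at ZT 21, and between 30.8 and 33.4 FPKM in EpSA. Cat, the peroxisomal catalase, was the steadiest of the group in chow, from 370 to 397 FPKM, and ranged from 356 to 424 FPKM in EpSA. The diet differences of Sod2 and Cat were -0.04 ± 0.05 and 0.01 ± 0.05.

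Detoxification genes were on both sides of 0: 5 were higher in EpSA and 4 lower, and of these Nqo1, Gsta4 and Gstt1 changed sign when some times were left out, and Nqo1 and Gstt1 also after quantile normalization. Ugt1a6a (ENSMUSG00000054545, chr1:88134809-88218997), a glucuronosyltransferase for phenols and other planar compounds, had 0.983, 0.857, 1.41, 1.53, 1.56, 0.967 and 1.23 FPKM in chow. The EpSA pools held 1.18, 1.52, 1.84, 1.73, 1.75, 1.89 and 2.11 FPKM. It was higher in EpSA at 7 of 7 times and had the largest difference of all members, 0.30 ± 0.07 (interval 0.14 to 0.46, limma adjusted p = 0.093). With a pseudocount of 0.1 in place of 1 the difference was 0.475, with an adjusted p of 0.094. Its level is low and the genes of the Ugt1a cluster share their last exons, so its share of reads depends on how the authors' counting split them; Ugt1a7c of the same cluster had 44.1 FPKM in chow and 43.4 FPKM in EpSA.

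The glutathione transferases, which join glutathione to reactive compounds, did not go one way. Gstm1 had 307, 317, 269, 326, 263, 254 and 301 FPKM in chow and 262, 269, 258, 239, 249, 242 and 277 FPKM in EpSA. It was lower in EpSA at 7 of 7 times, with differences of -0.45 at ZT 13 and -0.23 to -0.06 at the others and a mean of -0.18 ± 0.06 (interval -0.31 to -0.05, limma adjusted p = 0.16). Gsta2 was higher in EpSA at 7 of 7 times, though at ZT 5 the values were 169.6 and 169.9 FPKM. Its lowest, median and highest values were 146, 169.6 and 209.6 FPKM in chow and 167, 204 and 239.6 FPKM in EpSA.

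The Gsta2 difference was 0.17 ± 0.06 (interval 0.04 to 0.31, limma adjusted p = 0.18). Gsta3 (medians 25.8 and 26.4 FPKM), Gsta4 (22.3 and 23.1), Gstp1 (47.8 and 44.7) and Gstt1 (55.3 and 53.7) had differences of 0.14 (0.07 without ZT 21), 0.04, -0.09 (-0.049 without ZT 13) and -0.02, and every interval included 0. Gsta2, Gstm1 and Gstp1 have near-identical relatives (Gsta1, other Gstm genes and Gstp2), so their values are uncertain where reads could be split between copies.

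Nqo1, a quinone reductase and a standard readout of NRF2 activity, had 40.1, 37.9, 46.2, 42.7, 37.3, 24.5 and 29.8 FPKM in chow. In EpSA it had 37.4, 33.96, 42.8, 32.4, 35.7, 37.0 and 33.4 FPKM. Both diets were highest at ZT 9. Chow was above EpSA from ZT 1 to ZT 17 and below it at ZT 21 and ZT 25, and the mean difference was -0.01 ± 0.10 (interval -0.23 to 0.21, limma adjusted p = 0.96).

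Hmox1, haem oxygenase 1, which breaks down haem and responds to oxidants and to haem, had 17.6, 14.7, 15.2, 12.4, 14.9, 22.4 and 17.5 FPKM in chow. In EpSA it had 11.8, 17.0, 11.4, 12.7, 25.1, 26.9 and 26.7 FPKM. The EpSA pools from ZT 17 on were higher than every chow pool. The difference between diets ran from -0.54 at ZT 1 to 0.71 at ZT 17 and averaged 0.12 ± 0.14 (interval -0.20 to 0.45, limma adjusted p = 0.68). The average was 0.027 without ZT 17 and 0.235 without ZT 1. The EpSA pools at ZT 25 and ZT 1, the same clock hour from other mice, differed by 1.12. That is close to the full range of Hmox1 over all EpSA pools (1.17), which include both of these. Hmox1 is also made by macrophages. The immune cell markers summed to 175.1 to 926.4 FPKM over the chow pools and 177.6 to 231.6 FPKM over the EpSA pools. Cd74 was the largest part of these sums. C1qa of the same list had 14.6 to 35.3 FPKM in chow and 13.1 to 18.4 FPKM in EpSA. The part of immune cells in Hmox1 was not tested.

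In NADPH supply, G6pdx, the first enzyme of the pentose phosphate pathway, had 13.07, 13.73, 12.4, 12.2, 10.8, 8.14 and 11.2 FPKM in chow and 10.9, 12.0, 11.5, 8.76, 11.8, 10.6 and 11.5 FPKM in EpSA. Pgd, a later enzyme of the pathway, had 15.7, 16.6, 16.7, 15.9, 15.3, 14.7 and 15.0 FPKM in chow and 15.0, 16.3, 15.9, 13.1, 15.6, 15.6 and 15.4 FPKM in EpSA. Both were lowest at ZT 21 in chow and at ZT 13 in EpSA. The diet differences were -0.07 ± 0.08 and -0.04 ± 0.05, and without ZT 13 they were -0.006 and -0.001.

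**Figure D3:**
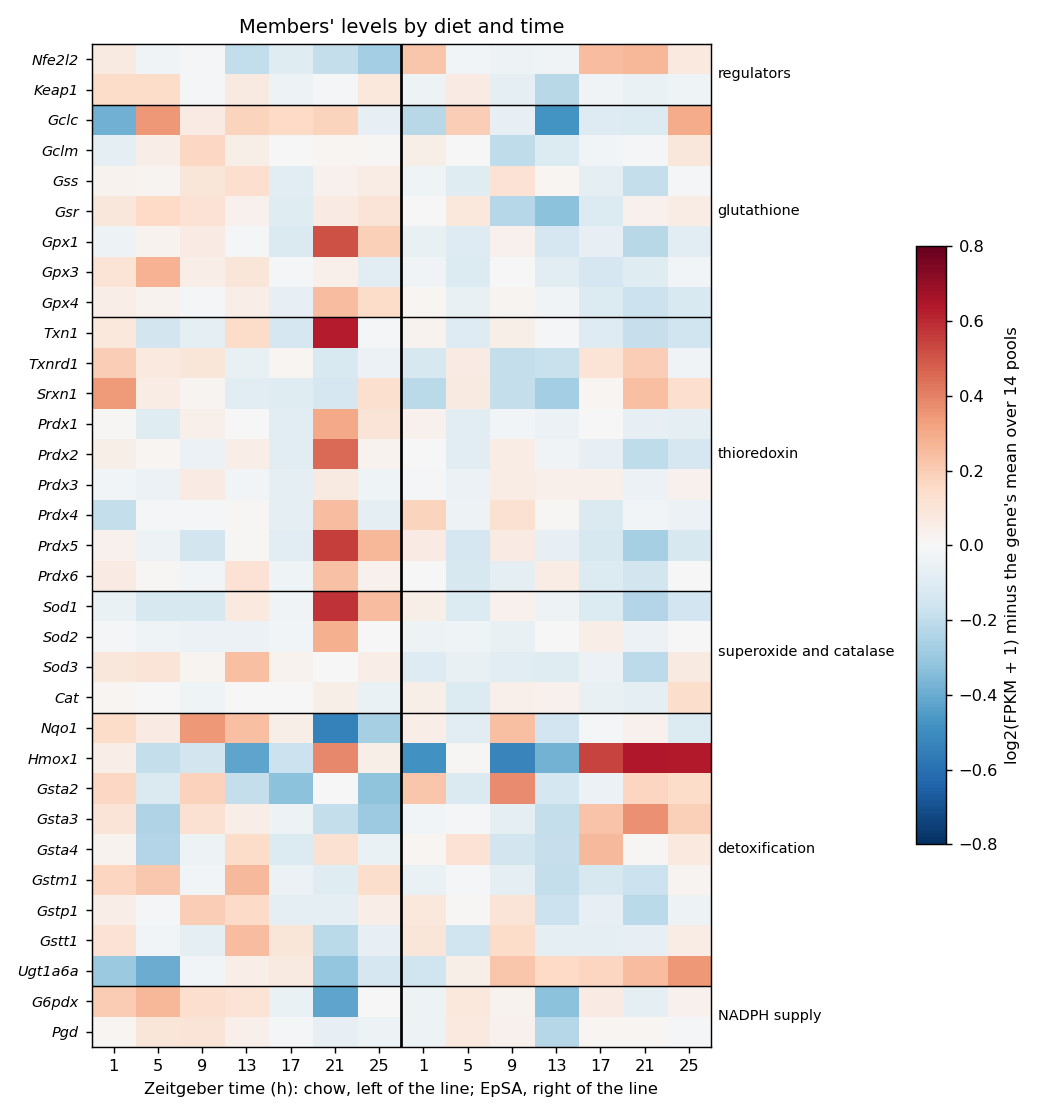
Levels of the 33 tested members in the 14 pools, as log2(FPKM + 1) minus the gene's own mean over the pools, in rows by role and columns by ZT in hours, with chow left of the line and EpSA right of it. Red is above and blue below the gene's mean. The chow column at ZT 21 is red for Gpx1, Txn1, Prdx2, Prdx5 and Sod1 and blue for Nqo1 and G6pdx, and Hmox1 is red in EpSA from ZT 17 on.

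Single times give 1 value per diet and no test. The number of members at least 0.5 apart between diets was 2 at ZT 1 (Srxn1 and Hmox1, both lower in EpSA; 5.62% of all genes), 0 at ZT 5 (2.98%) and 0 at ZT 9 (3.27%). It was 1 at ZT 13 (Gclc, lower; 5.31%), 1 at ZT 17 (Hmox1, higher; 3.9%) and 1 at ZT 25 (Hmox1, higher; 3.4%). At ZT 21 it was 8 of 33, beside 12.9% of all genes. Of the 8, Gpx1, Txn1, Prdx2, Prdx5 and Sod1 were lower in EpSA and Nqo1, Gsta3 and Ugt1a6a higher.

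Of these 8 members, 7 lay further from the other pools of their diet at ZT 21 in chow than in EpSA, and Gsta3 did not (-0.14 in chow and 0.35 in EpSA). Against the mean of the other 6 chow pools, that pool was at least 0.5 higher for 4 members (Txn1 by 0.65, Sod1 by 0.58, Prdx5 by 0.55 and Hmox1 by 0.52), as it was for 2.74% of all genes. It was at least 0.5 lower for 2 members (Nqo1 at -0.64 and G6pdx at -0.53), as it was for 2.36% of all genes. The median over the thioredoxin group was 0.304 there, beside -0.065 over all genes. In EpSA the ZT 21 pool lay at most 0.35 from the mean of the other EpSA pools for all members except Hmox1, at 0.67.

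Over the 11340 tested genes with a transcript length, levels moved with that length in several pools. This was most so at ZT 21, where the diets went in opposite directions. Each gene was set against its mean over the 14 pools. The median under 750 bases minus that at 6000 bases and over was 0.159 in chow and -0.168 in EpSA at ZT 21. It was 0.1 in EpSA at ZT 9, 0.097 in chow at ZT 25 and -0.08 in EpSA at ZT 17. Against the other chow pools, the ZT 21 chow medians went from 0.013 under 750 bases to -0.126 at 6000 bases and over. Against the other EpSA pools, the ZT 21 EpSA medians went from -0.037 to 0.114. In chow at ZT 21, all 3 members under 750 bases (Sod1, Prdx1 and Prdx5) were above the other pools, by 0.31 to 0.58. The 14 members of 750 to under 1500 bases ranged from -0.26 to 0.65 with a median of 0.04, the 11 of 1500 to under 3000 bases from -0.64 to 0.52 with a median of -0.1, and the 5 of 3000 to under 6000 bases from -0.17 to 0.31 with a median of -0.07. That chow pool also had the lowest sum of proximal tubule markers, 3786 FPKM. The part of transcript length and of cell makeup in the members' values was not tested.

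**Figure D4:**
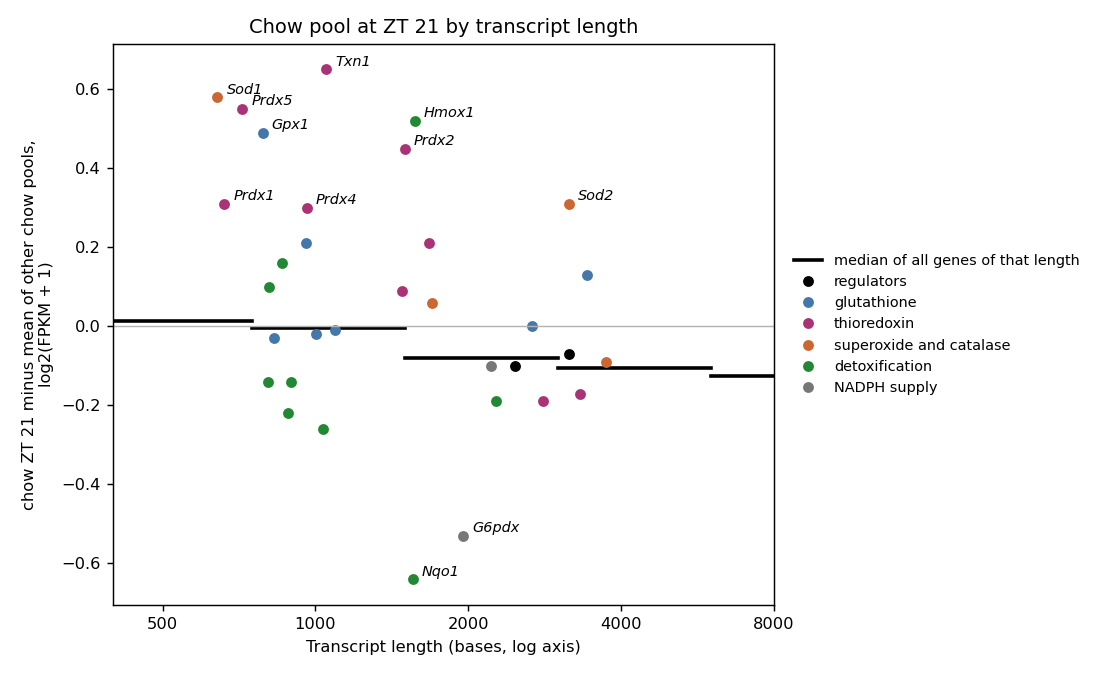
The chow pool at ZT 21 minus the mean of the other 6 chow pools, on the log2(FPKM + 1) scale, against transcript length in bases on a log axis. Points are the 33 tested members coloured by role. Bars are medians of all tested genes with a known length, within a span of length. The members spread from -0.64 for Nqo1 to 0.65 for Txn1. The bars lie between -0.126 and 0.013, and as medians over many genes they do not show the spread of single genes.

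The pools at ZT 25 and ZT 1 were from the same clock hour, and their distance is a scale for the other values. In chow 0 members were at least 0.5 apart (4.4% of all genes), and the farthest was Gsta2 at -0.48. In EpSA 3 were, all higher at ZT 25 (4.51% of all genes): Hmox1 by 1.12, and Gclc and Ugt1a6a by 0.51 each. The median absolute distance of the members was 0.093 in chow and 0.097 in EpSA, and the median range over the 7 pools 0.378 and 0.301.

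Daily rhythm was tested as a 24 h cosine in each diet. In chow 0 members passed at an adjusted p of 0.05 (0.0974% of all genes), and 3 had an unadjusted p under 0.05 (10.2% of all genes). These were Hmox1 with a fitted peak at ZT 22.6 (amplitude 0.27 on the log2 scale, limma adjusted p = 0.43), Nqo1 at ZT 9.5 (0.33, adjusted p = 0.44) and G6pdx at ZT 7.2 (0.25, adjusted p = 0.48). As a share of 33 members the 3 are no more than the background, and no time of peak is read from them. In EpSA 0 members passed (0.045% of all genes) and 3 had an unadjusted p under 0.05 (8.63%).

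These 3 were Gsr with a fitted peak at ZT 0.6 (amplitude 0.18, limma adjusted p = 0.54), Nfe2l2 at ZT 20.4 (0.18, adjusted p = 0.54) and Gsta3 at ZT 20.8 (0.22, adjusted p = 0.55). The test of the difference of rhythm called 0 members and 0% of all genes. Its unadjusted p was under 0.05 for 4 members, Gclm, Nfe2l2, Gsta3 and Gsr (4.38% of all genes), each with an adjusted p of 0.82. The difference in timing between diets was therefore not detectable with these pools.

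In the rhythm statistics of the authors' deposited table, 3 members had a meta2d p under 0.05 in chow (11.8% of all genes tested) and 2 in EpSA (9.82%). In the authors' deposited table the chow p was 0.003 for Pgd (q 0.35), 0.027 for Nqo1 (q 0.8) and 0.03 for Gsr (q 0.84). In EpSA the authors' deposited table gave 0.0026 for Nfe2l2 (q 0.46, phase 20 h) and 0.0038 for Gsr (q 0.5, phase 3.9 h). Gsr is the member with a low deposited p in both diets, with relative amplitudes of 0.0753 in chow and 0.131 in EpSA in the authors' deposited table.

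Around the members, 125 other genes of the same pathways were listed and 103 tested. Of these, 0 were called between diets, 40 were higher and 63 lower in EpSA with a median of -0.037, and 6 higher and 18 lower genes of the 103 had an unadjusted p under 0.05, beside 8.56% and 10.6% of all genes. Among partners and regulators of NRF2 (11 tested, 5 higher and 6 lower), Mafg, a small MAF that pairs with NRF2, had a difference of 0.12 (limma adjusted p = 0.21, higher at 7 of 7 times). Nfe2l1, a relative of NRF2, was at -0.12 (adjusted p = 0.29), and Dpp3, a peptidase that binds KEAP1, at -0.13 (adjusted p = 0.13).

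Of the other glutathione genes 21 were tested, 8 higher and 13 lower, and Gpx6 had the largest difference of all listed pathway genes. Ggt1, the brush border enzyme that starts the breakdown of extracellular glutathione, had 342, 365, 357, 382, 358, 351 and 382 FPKM in chow. The EpSA values were 308, 325, 296, 310.2, 289, 264 and 316 FPKM. The diets did not overlap over the 7 times, and the difference was -0.27 ± 0.05 (interval -0.38 to -0.16, limma adjusted p = 0.058).

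Gpx6, a glutathione peroxidase, had a mean of 29.8 FPKM in chow and 20.3 FPKM in EpSA and was lower at 7 of 7 times, with a mean difference of -0.54 ± 0.10 (limma adjusted p = 0.063). Slc25a39, the mitochondrial glutathione carrier, was at -0.24 (154 and 131 FPKM, adjusted p = 0.12). These 3 were named for the size of their difference and none passed the test; among the 8 higher genes, Slc3a2, a subunit of amino acid transporters named after its values were seen, was at 0.19 (33.2 and 38.1 FPKM, adjusted p = 0.17).

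Of the other thioredoxin and methionine sulfoxide genes (21 tested, 8 higher and 13 lower), Msrb1, which repairs oxidised methionine, Selenow and Selenop, which carries selenium in plasma, had the largest differences. Msrb1 averaged 145 and 117 FPKM (-0.31, limma adjusted p = 0.093), Selenow 41.3 and 33.2 FPKM (-0.30, adjusted p = 0.089) and Selenop 754 and 662 FPKM (-0.19, adjusted p = 0.14). Msrb1 and Selenop were lower in EpSA at 7 of 7 times and Selenow at 6.

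The other detoxification genes (32 of 47 listed were tested, 15 higher and 17 lower) again went both ways. Ephx1, the microsomal epoxide hydrolase, averaged 37.1 FPKM in chow and 46.6 FPKM in EpSA, a difference of 0.33 ± 0.18 (interval -0.08 to 0.74, limma adjusted p = 0.35). It was high at ZT 9 in both diets (56.1 and 58.5 FPKM) and also at ZT 17 and ZT 21 in EpSA (58.1 and 58.2 FPKM), where chow had 32.9 and 23.95 FPKM. Abcc5, an export pump, was at 0.27 (adjusted p = 0.13), and Ugt2b37, a glucuronosyltransferase, at -0.28 (adjusted p = 0.15).

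The other NADPH genes (8 tested, 2 higher and 6 lower) had Pgls at -0.21 (limma adjusted p = 0.26), Taldo1 at -0.17 (adjusted p = 0.17) and Me1 at -0.16 (adjusted p = 0.25). Pgls and Taldo1 encode enzymes of the pentose phosphate pathway and Me1 the cytosolic malic enzyme. Of the haem and iron genes (10 tested, 2 higher and 8 lower), the metallothioneins Mt2 and Mt1 were at -0.27 and -0.17 and the ferritin light chain gene Ftl1 at -0.15, with adjusted p of 0.47, 0.58 and 0.23.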

How the data were processed

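The authors deposited 1 table per diet with 7 expression columns and rhythm statistics for 56691 genes, of which 52073 matched a symbol in the reference names. The table headed with another abbreviation was matched to EpSA through the file named in those samples' descriptions. The headers give no unit for expression. The deposited values were read as FPKM, and as means of 3 mice because the last decimal is always 0, 3 or 7. The deposited p-values and q-values, phases in hours and the ratio of amplitude to baseline come from meta2d, per the file headers. Aligner, build and annotation are not given in the sources used here, and with depth unknown counting error could not be computed.

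All tests used limma 3.58.1 (R 4.3.3) with a mean trend and robust moderation, a pseudocount of 1 before log2, a minimum mean of 1 FPKM and Benjamini-Hochberg adjustment over 13344 genes at 0.05, two-sided. The pseudocount shrinks the differences of low genes. The tests take each mean as 1 sample, with time as a factor for diet (6 residual degrees of freedom), a 24 h cosine and sine for rhythm within a diet (4) and its interaction with diet (8). The error is thus the spread between times, not between mice. The models were tested on simulated data.

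Members and gene lists were chosen with earlier results of these data known. Values by time are given for 15 members. These are the 2 per role with the largest diet difference, the 2 with the largest range in chow and both regulators. Gsr, Gsta2, Ggt1 and Ephx1 were added after their values were seen. For Sod2, Gsta2 and Ephx1 only a range, a mean or values at some times are printed. Up to 3 other pathway genes per list are named by the size of their diet difference. Promoter windows are from RefSeq (GRCm38.p6), and gene positions and transcript lengths from GENCODE (GRCm38). The transcript length of a gene is the median over its protein-coding transcripts, a measure chosen after the data were seen. Alternatives were another pseudocount, other filters, other scalings, plain moderation, the deposited statistics and each time left out. Plots were drawn with matplotlib 3.10.9.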

Additional observations from a re-analysis of the deposited data

Results flagged for a closer look

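For 6 members 1 time stood apart from the other 6 in the difference between diets (EpSA minus chow, log2(FPKM + 1)), by the gap to the nearest other time over the whole range. At ZT 21 this was so for Gpx1 at -0.73 (next value -0.28), Txn1 at -0.81 (next -0.16), Prdx2 at -0.66 (next -0.17), Prdx6 at -0.38 (next -0.14) and Sod2 at -0.33 (next -0.03). At ZT 13 it was so for Pgd at -0.27 (next -0.07). Chance alone marks about 1 in 20 such groups of values. The 5 values at ZT 21 share the same 2 pools and are not independent of each other. The share of all genes that this rule marks was not computed, so the count is not read as a trait of the members. At ZT 21, 12.9% of all genes were at least 0.5 apart between diets, beside 2.98 to 5.62% at the other times.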

How the results depend on the processing

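The 4 counts of members called stayed at 0 under every alternative run for them, which for the 2 counts of rhythm within a diet included the deposited meta2d and JTK q-values. The lowest member adjusted p for diet ran from 0.073 to 0.31. Over all genes, 33 were called between diets and 0 with no filter, 55 at a mean of at least 5 FPKM, 17 with medians set equal, 70 after quantile normalization, 3 with plain moderation (an alternative chosen after seeing the data) and 0 to 8 with 1 time left out.

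Of the 33 members, 22 kept the direction of their diet difference under all alternatives and 11 did not. Quantile normalization moved the median of the glutathione genes from -0.134 to -0.052 and turned Gclm to 0.012, Txnrd1 to 0.004, Prdx1 to 0.054, Sod2 to 0.017, Nqo1 to 0.042 and Gstt1 to 0.051. With each time left out in turn, the difference ranged from -0.105 to 0.003 for Txnrd1, -0.135 to 0.02 for Srxn1, 0 to 0.038 for Prdx3, -0.031 to 0.075 for Prdx4, -0.053 to 0.015 for Sod2, -0.024 to 0.029 for Cat, -0.109 to 0.052 for Nqo1, -0.015 to 0.102 for Gsta4 and -0.063 to 0.028 for Gstt1. The cause was not tested.

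The diet test pairs the pools of the 2 diets by time. No paired analysis was possible by replicate number, because each column is a mean over mice and carries none. Depth is unknown and the spread between mice cannot be seen, so small differences cannot be resolved.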
